A study of Mus musculus with 8 samples.

Results

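The miR-34 and miR-449 family was followed through 8 small RNA libraries of mouse cells. Its members were the 7 mature miRNAs listed under their own names in all 5 deposited tables, mmu-miR-34a-5p, mmu-miR-34b-5p, mmu-miR-34b-3p, mmu-miR-34c-5p, mmu-miR-34c-3p, mmu-miR-449a-5p and mmu-miR-449c-5p, out of 1978 mature miRNAs in the longest of them. The libraries came from C2C12, an established mouse myoblast line, and from P19, a mouse embryonal carcinoma line. C2C12 cells expressed either the hairpin shNC, the negative control, or the hairpin shPerk, which targets Perk and gives the PERK knockdown cells, and each line was sampled at day 0, before differentiation was induced, and at day 3. Both hairpins were delivered by lentivirus and the infected cells were selected with puromycin, so all 4 of these libraries come from selected stable lines that had been infected. A second C2C12 pair carried an empty vector or an ATF4 overexpression vector, in which the EF1α promoter drives the transgene, and was grown in growth medium, without induction of differentiation. The P19 pair carried shNC or shPerk, with no day or induction state in the labels. Each condition had 1 library, so no difference between conditions could be set against a spread between replicates, and no test of a condition was possible.

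PERK is a kinase of the endoplasmic reticulum that responds to unfolded protein and, through phosphorylation of eIF2α, raises translation of the transcription factor ATF4. The miR-34 miRNAs are known as direct targets of p53, and they lower cell cycle and survival proteins such as cyclin-dependent kinases, MET and BCL2. The miR-449 miRNAs carry the same seed, the stretch that pairs with target mRNAs, and are best known from multiciliated cells, where they are induced together with the miR-34b and miR-34c pair. A miRNA hairpin gives a 5p and a 3p strand, and the strand that is loaded less often is usually degraded.

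The mature sequences below show which members can be expected to share targets by their seed and which cannot, since the 5p and the 3p strands of one hairpin carry different seeds. They were taken from RefSeq on GRCm38.p6, where 6 of the 7 members were matched (all but mmu-miR-34c-5p), and are written 5′ to 3′ with the seed (bases 2 to 8) in capitals.
mmu-miR-34a-5p: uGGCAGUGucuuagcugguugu
mmu-miR-34b-5p: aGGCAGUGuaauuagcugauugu
mmu-miR-449a-5p: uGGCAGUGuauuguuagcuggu
mmu-miR-449c-5p: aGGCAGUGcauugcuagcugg
mmu-miR-34b-3p: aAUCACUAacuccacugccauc
mmu-miR-34c-3p: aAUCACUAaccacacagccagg

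The 4 printed 5p strands held the seed GGCAGUG and the 2 3p strands held the seed AUCACUA. Among the 1738 mature sequences of the RefSeq table, the first seed was found in 4, all of them members, and the second in 2, both members. As mmu-miR-34c-5p was missing there, these counts cover the sequences held and not every miRNA with the seed. Over their whole length the 5p strands differed by 4 edits between mmu-miR-34a-5p and mmu-miR-34b-5p and by 6 between mmu-miR-34a-5p and mmu-miR-449a-5p. The 3p strands of miR-34b and miR-34c differed at 5 positions counted from the 5′ end, U11C, C12A, U16A, U21G and C22G, with the miR-34b base first. The printed sequences differ enough for full-length reads to be told apart in principle, but whether the annotation kept them apart was not tested. The mmu-miR-34c-5p sequence was not available, so its distance from mmu-miR-34b-5p was not measured. The rule applied to reads that match several miRNAs is not given in the sources used here. Outside the family, mmu-miR-199a-3p and mmu-miR-199b-3p had equal counts at day 3, 587585 reads in shNC and 324264 in shPerk cells. The rows mmu-let-7c-5p and mmu-let-7f-5p were nearly equal, at 595368 and 595256 reads in shNC cells at day 3. Reads can thus be counted under several names, and the counts of mmu-miR-34b-5p and mmu-miR-34c-5p may share reads.

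The family came from 3 loci, which matters because strands of one hairpin and hairpins of one cluster share a transcript. In the GENCODE M21 annotation of GRCm38, Mir34a lay alone at chr4:150068454-150068555 on the plus strand, where its last 17 bases overlapped an exon of Gm37795, an unclassified transcript. Mir34b at chr9:51103562-51103645 and Mir34c at chr9:51103034-51103110 lay 451 bases apart on the minus strand, within an intron of Btg4, which runs on the opposite strand. Mir449a at chr13:113037534-113037624 and Mir449c at chr13:113035983-113036091 lay 1442 bases apart on the plus strand, within an intron of Cdc20b on the same strand. The 7 members therefore stand for 5 hairpins and 3 loci and are not independent of one another.

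Library totals were between 8800977 and 11993448 reads in the 4 hairpin libraries of C2C12, for which raw counts were deposited. The ATF4 and P19 pairs were deposited as RPM, reads scaled to a total of 1000000 reads counted on miRNAs per library, in tables that were scaled separately, and counts are set beside them as CPM, the same scaling of the counts. The identity of the lines was checked against their defining miRNAs. The 4 muscle miRNAs (miR-206-3p, miR-1a-3p, miR-133a-3p and miR-133b-3p) summed to between 2467 and 88480 CPM or RPM in the C2C12 libraries. In the P19 libraries miR-206-3p was not listed and the other 3 summed to at most 96.9 RPM, so the sums are not of the same miRNAs. In the vector library, the lowest of C2C12, miR-206-3p alone was at 2351 RPM. There miR-1a-3p, miR-133a-3p and miR-133b-3p were at 6.42, 69.4 and 40.8 RPM, against 69.6, 25.6 and 1.79 RPM in P19 shPerk cells. The 6 embryonic stem cell miRNAs, from the clusters of miR-290 and miR-302, summed to at least 172116 RPM in the P19 libraries and to at most 0.265 CPM in the C2C12 hairpin libraries. Small RNA libraries do not carry Perk or Atf4 mRNA, so the knockdown and the overexpression could not be checked in them. RNA came from whole cultures, in which fewer cells with a miRNA and less of it per cell cannot be told apart.

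In every library mmu-miR-34c-5p was the most abundant member. It stood at 1115 CPM in shNC cells and 2570 CPM in shPerk cells at day 0, and at 2531 and 1723 CPM at day 3. It was listed at 1191 RPM in vector cells, 2010 RPM in ATF4 cells, 1095 RPM in P19 shNC cells and 1419 RPM in P19 shPerk cells. The highest level was 2.35 times the lowest, the narrowest range of any member. Together the 5 strands with the 5p seed made up between 1307 and 3112 CPM or RPM of a library, and mmu-miR-34c-5p was between 73.9% and 85.8% of that sum.

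The members from the same cluster followed at lower levels. The mmu-miR-34b-5p strand was at 142 CPM in shNC and 377 CPM in shPerk cells at day 0, and at 258 and 187 CPM at day 3. Its values in the other libraries were 158.3 RPM with the vector, 265 RPM with ATF4, 149 RPM in P19 shNC and 216 RPM in P19 shPerk cells. The opposite strand of that hairpin, mmu-miR-34b-3p, was at 158.0 and 502 CPM at day 0 and at 279 and 276 CPM at day 3, in shNC and shPerk cells respectively. Its RPM values were 251 with the vector, 431 with ATF4, 138 in P19 shNC and 142 in P19 shPerk cells. Both strands were highest in shPerk cells at day 0. The mmu-miR-34c-3p strand, the lesser product of its hairpin, was at 37.9 and 85.8 CPM at day 0 and at 104 and 72.9 CPM at day 3, in the same order. It was listed at 53.02 RPM with the vector, 81.9 RPM with ATF4, 33.7 RPM in P19 shNC and 39.7 RPM in P19 shPerk cells.

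The mmu-miR-34a-5p levels followed another order. At day 0 they were 246 CPM (95% interval 237 to 255) in shNC cells and 133 CPM (125 to 140.4) in shPerk cells. The day 3 levels were 276 CPM (267 to 286) in shNC cells and 91.6 CPM (85.6 to 97.96) in shPerk cells. The remaining values were 157 RPM with the vector, 186 RPM with ATF4, 36.0 RPM in P19 shNC and 44.7 RPM in P19 shPerk cells. Both shNC libraries of C2C12 lay above both shPerk libraries, and the P19 libraries were lowest, 7.67 times below the highest. These intervals are exact Clopper-Pearson intervals on the reads, which cover counting error only, since PCR copies of one molecule cannot be recognised in these reads.

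The miR-449 strands were scarce. The mmu-miR-449a-5p strand had 55 reads at day 0 in shNC cells against 231 with shPerk, and 146 against 57 reads at day 3. It was listed at 8.13 RPM with the vector, 9.04 RPM with ATF4, 17.4 RPM in P19 shNC and 11.9 RPM in P19 shPerk cells. The mmu-miR-449c-5p strand had 25 and 52 reads at day 0 and 26 and 2 reads at day 3, in shNC and shPerk cells, and RPM values of 4.73, 4.27, 8.97 and 3.81 in the same order of the other libraries. Its level in shPerk cells at day 3 was 0.212 CPM, with an interval from 0.0257 to 0.766 CPM. This was the lowest level of any member in any library.

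**Figure D1:**
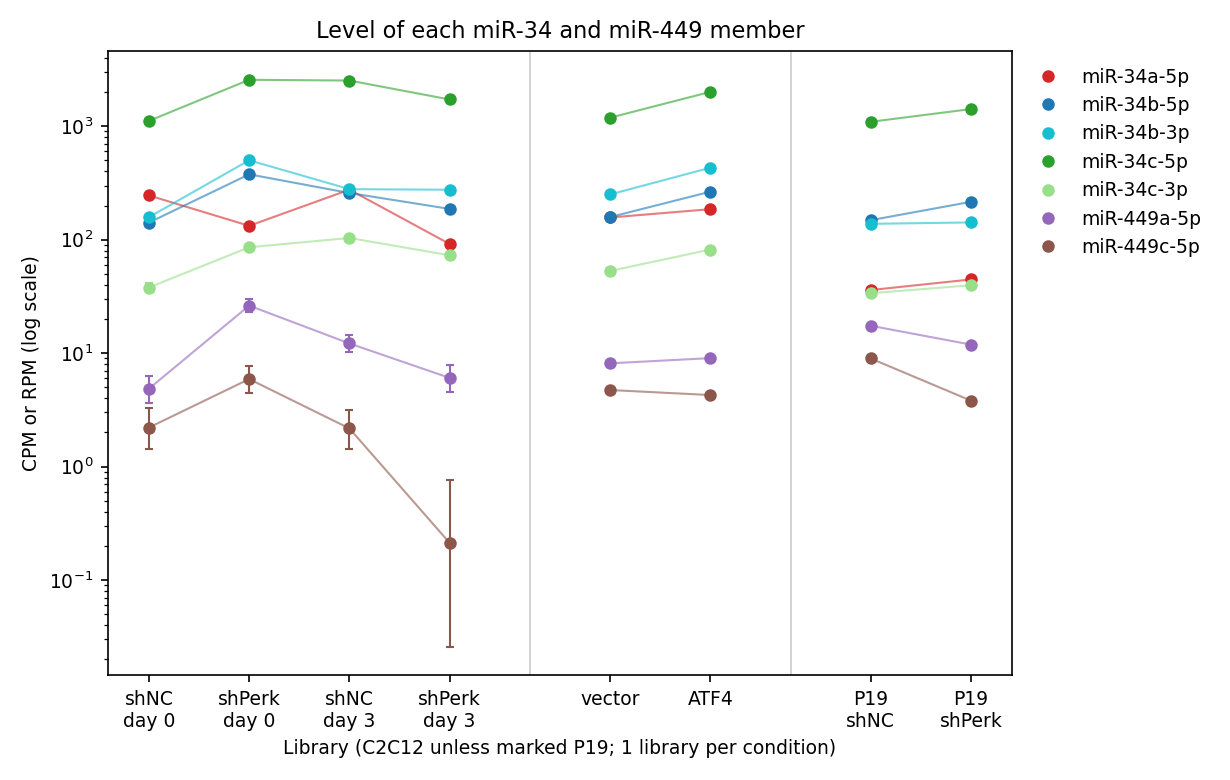
Level of each of the 7 members in the 8 libraries, in CPM or RPM on a log axis, 1 point per library. Bars on the 4 C2C12 hairpin libraries are 95% counting intervals, lines join libraries of one experiment, and mmu-miR-34a-5p falls between shNC and shPerk at both days while mmu-miR-34c-5p goes from 1115 to 2570 CPM at day 0.

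Within a library the order of the members was nearly fixed. The mmu-miR-34c-5p strand was first, and mmu-miR-34c-3p, mmu-miR-449a-5p and mmu-miR-449c-5p were the last 3, in that order, in all 8 libraries. The members that changed places were mmu-miR-34a-5p and both miR-34b strands. In shNC cells at day 0 mmu-miR-34a-5p was second, above both miR-34b strands by more than the counting intervals. In shNC cells at day 3 it lay between them, and its interval overlapped that of mmu-miR-34b-3p (270 to 289 CPM) and that of mmu-miR-34b-5p (249 to 267 CPM). In both shPerk libraries of C2C12 and in the vector, ATF4 and P19 libraries it was below both. The vector library put it at 157 RPM against 158.3 RPM for mmu-miR-34b-5p, a gap that could not be set against any replicate spread. Differences in adapter ligation between sequences can shift such orders, so they are orders of reads.

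Fold changes were calculated across all miRNAs that reached 1 CPM or RPM in either library of the pair, using TMM factors, which centre most miRNAs on no change. All 7 members passed this filter in each of the 6 comparisons. The limit for a call was a log2 fold change beyond 1 in either direction, and since this is a limit of size and no test, the share of all miRNAs beyond it is given beside each count.

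The comparison of PERK knockdown with control cells at day 0 asked whether the knockdown altered miRNAs of myoblasts before differentiation was induced. At day 0 both miR-34b strands, both miR-34c strands and both miR-449 strands were higher in shPerk than in shNC cells, while mmu-miR-34a-5p was lower. The called members were 6 of 7 on the higher side, where 15.6% of the 602 miRNAs tested were called, and 0 of 7 on the lower side, where 20.3% were. The members' median was 1.55 against -0.06 over all miRNAs tested. The mmu-miR-449a-5p strand differed most, with 55 and 231 reads and a log2 fold change of 2.56 (95% counting interval 2.14 to 3.02). The strands of the chromosome 9 cluster were all past the limit on the higher side, by unequal amounts. Their log2 fold changes were 1.80 (1.72 to 1.88) for mmu-miR-34b-3p, 1.55 (1.46 to 1.63) for mmu-miR-34b-5p, 1.34 (1.31 to 1.37) for mmu-miR-34c-5p and 1.31 (1.14 to 1.49) for mmu-miR-34c-3p. The mmu-miR-449c-5p value was 1.55, but its 25 and 52 reads left an interval from 0.84 to 2.30 that reached below the limit. For mmu-miR-34a-5p the reads went from 2781 to 1167, 1.69-fold lower, a log2 fold change of -0.76 (-0.86 to -0.66) that did not reach the limit.

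Markers of other cell types moved in the same comparison. The neuronal miRNA miR-9-5p went from 173 to 2641 CPM between shNC and shPerk cells at day 0, and the other neuronal marker, miR-124-3p, had 0 reads in all 4 libraries. The blood miRNA miR-142a-5p went from 28 to 1026 reads, while the other blood marker, miR-223-3p, had 0 reads in both. The sum of the 4 muscle miRNAs went from 19165 to 3839 CPM. Their part in the family's difference was not tested.

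The same comparison after 3 days in differentiation medium gave another picture. At day 3 mmu-miR-34a-5p was 2.39-fold lower in shPerk than in shNC cells, with 864 against 3313 reads and a log2 fold change of -1.26 (-1.37 to -1.15). The strands of the chromosome 9 cluster lay close to no change, at 0.32 (0.24 to 0.39) for mmu-miR-34b-3p, -0.13 (-0.22 to -0.05) for mmu-miR-34b-5p, -0.22 (-0.25 to -0.19) for mmu-miR-34c-5p and -0.18 (-0.31 to -0.04) for mmu-miR-34c-3p. The sign of the first of these turned, to -0.02, when libraries were scaled by their totals alone. The mmu-miR-449a-5p value was -0.68 (-1.14 to -0.23), and it reached -1.01 under that scaling. The mmu-miR-449c-5p log2 fold change was -2.96, from 26 to 2 reads, with an interval from -6.14 to -1.02.

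Of the 7 members, 2 were thus called lower at day 3, where 23.0% of the 575 miRNAs tested were called, and 0 were called higher, where 21.9% were. This count stood close to the share over all miRNAs. The members' median was -0.22 against 0.01 over all miRNAs tested. The muscle miRNAs summed to 88480 CPM in shNC and 24312 CPM in shPerk cells at day 3, miR-9-5p stood at 551 and 4044 CPM, and miR-142a-5p had 24 and 414 reads. The part of these shifts in the family's values was not tested.

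**Figure D2:**
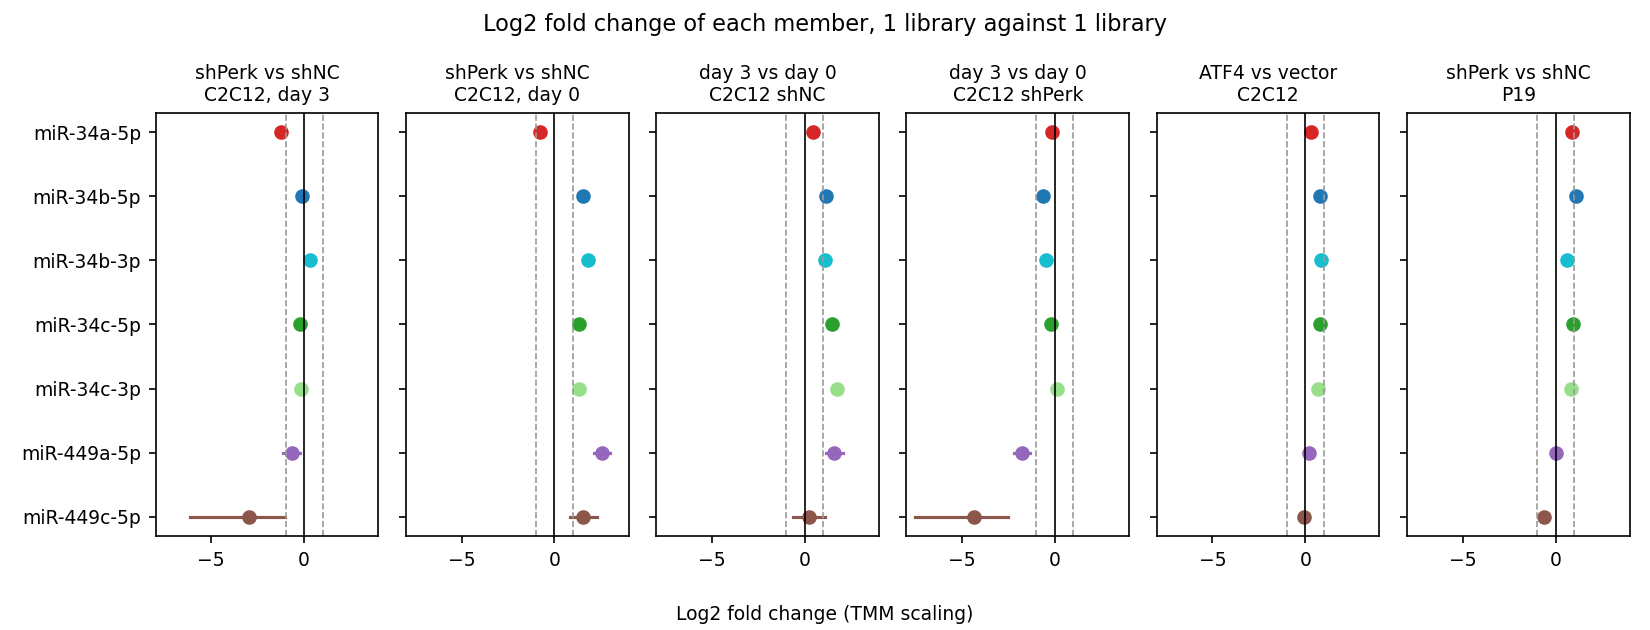
Log2 fold change of each member (x axis, TMM scaling) in the 6 comparisons, 1 library against 1 library. Horizontal lines are 95% counting intervals where counts were deposited and dashed lines mark the limit of 1, which 6 of 7 members pass on the higher side at day 0 of the knockdown and 2 of 7 pass on the lower side at day 3.

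The knockdown values at the 2 days were then set against each other, using all 4 hairpin libraries. All 7 members had a lower knockdown log2 fold change at day 3 than at day 0. The difference was smallest for mmu-miR-34a-5p, at -0.50 (-0.65 to -0.36), and that strand was lower in shPerk cells at both days. It was -1.68 (-1.80 to -1.56) for mmu-miR-34b-5p, -1.48 (-1.59 to -1.38) for mmu-miR-34b-3p, -1.56 (-1.60 to -1.52) for mmu-miR-34c-5p and -1.49 (-1.71 to -1.27) for mmu-miR-34c-3p. The miR-449 strands differed more, by -3.24 (-3.85 to -2.63) for mmu-miR-449a-5p and by -4.51 (-6.70 to -2.32) for mmu-miR-449c-5p, the latter resting on 2 reads in 1 library. These intervals hold for the 4 libraries and not for the conditions.

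Day 3 against day 0 in shNC cells followed the family through differentiation. The cluster on chromosome 9 and mmu-miR-449a-5p were higher after 3 days. The log2 fold change was 1.72 (1.56 to 1.88) for mmu-miR-34c-3p, 1.45 (1.42 to 1.48) for mmu-miR-34c-5p, 1.13 (1.04 to 1.22) for mmu-miR-34b-5p and 1.09 (1.003 to 1.17) for mmu-miR-34b-3p. For mmu-miR-449a-5p it was 1.59 (1.13 to 2.07), from 55 to 146 reads. The mmu-miR-34a-5p value was 0.44 (0.36 to 0.51), and that of mmu-miR-449c-5p was 0.24, with an interval from -0.61 to 1.09 around 25 and 26 reads.

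Called higher were 5 of 7 members, against 12.5% of the 593 miRNAs tested, and called lower were 0, against 16.5%. The median of the members was 1.13 and that of all miRNAs tested was -0.04. Both miR-34b strands lay just past the limit, and under total scaling they fell to 0.87 for mmu-miR-34b-5p and 0.82 for mmu-miR-34b-3p, which left 3 called members. The sum of the muscle miRNAs went from 19165 to 88480 CPM over the same days. Its part in the family's difference was not tested.

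The corresponding step in shPerk cells ran the other way for most of the family. Only mmu-miR-34c-3p was higher at day 3 than at day 0, at 0.12, with an interval from -0.03 to 0.27 that included no change, and it was -0.24 under total scaling. The mmu-miR-34c-5p value was -0.22 (-0.25 to -0.19), that of mmu-miR-34a-5p was -0.17 (-0.30 to -0.05), that of mmu-miR-34b-3p was -0.50 (-0.58 to -0.43) and that of mmu-miR-34b-5p was -0.65 (-0.74 to -0.57). The miR-449 strands were the called members. The mmu-miR-449a-5p strand went from 231 to 57 reads, at -1.76 (-2.20 to -1.34), and mmu-miR-449c-5p went from 52 to 2 reads, at -4.37 (-7.52 to -2.52).

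This made 2 of 7 members called lower, where 16.9% of the 573 miRNAs tested were, and 0 called higher, where 16.9% were as well. The members' median was -0.50 against -0.05 over all miRNAs tested. The sum of the muscle miRNAs went from 3839 to 24312 CPM, miR-9-5p from 2641 to 4044 CPM and miR-142a-5p from 1026 to 414 reads between these libraries, and their part in the family's values was not tested. This comparison shares its libraries with the knockdown comparisons at both days, so its values are not a separate observation. Put as levels, mmu-miR-34c-5p in shPerk cells at day 0 (2570 CPM, 2537 to 2604) and in shNC cells at day 3 (2531 CPM, 2502 to 2559) had overlapping counting intervals. The mmu-miR-34a-5p levels of the same pair of libraries, 133 and 276 CPM, did not overlap.

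ATF4 overexpression asked whether the transcription factor downstream of PERK altered the family in myoblasts that had not been induced to differentiate. The members' log2 fold changes in ATF4 against vector cells were 0.84 for mmu-miR-34b-3p, 0.81 for mmu-miR-34c-5p, 0.80 for mmu-miR-34b-5p and 0.69 for mmu-miR-34c-3p. They were 0.30 for mmu-miR-34a-5p, 0.21 for mmu-miR-449a-5p and -0.09 for mmu-miR-449c-5p. The 4 strands of the chromosome 9 cluster lay between 1.61-fold and 1.79-fold higher, and the other members within 1.23-fold. No member reached the limit in either direction, against 14.0% of the 605 miRNAs tested on the higher side and 8.60% on the lower side, and the median was 0.69 for members against -0.01 over all miRNAs tested. With upper-quartile scaling the median of all miRNAs moved to -0.38, and the signs of mmu-miR-34a-5p and mmu-miR-449a-5p turned with it.

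The sum of the 4 muscle miRNAs went from 2467 to 3790 RPM, with miR-1a-3p at 6.42 and 259 RPM and miR-206-3p at 2351 and 3320 RPM. The neuronal miRNA miR-9-5p went from 76.0 to 236 RPM in the ATF4 comparison, and miR-142a-5p went from 7.37 to 2.71 RPM. Their part in the family's values was not tested. Low RPM values fell on steps of 0.0945 RPM in the vector and 0.0822 RPM in the ATF4 library, which is about what 1 read was worth there. The scarce mmu-miR-449c-5p strand then stood for about 50 and 52 reads.

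In P19 cells mmu-miR-34b-5p was 2.19-fold higher in shPerk than in shNC cells, a log2 fold change of 1.13. It was the only called member of 7, where 17.1% of the 696 miRNAs tested were called higher, and 0 members were called lower, where 17.5% were. The remaining values were 0.97 for mmu-miR-34c-5p, 0.90 for mmu-miR-34a-5p, 0.82 for mmu-miR-34c-3p, 0.63 for mmu-miR-34b-3p, 0.04 for mmu-miR-449a-5p and -0.63 for mmu-miR-449c-5p. The members' median was 0.82 against -0.06 over all miRNAs tested. In the same pair the embryonic stem cell miRNAs summed to 172116 RPM with shNC and 403102 RPM with shPerk, the neuronal miRNAs miR-124-3p and miR-9-5p to 3556 and 1459 RPM, and the 3 epithelial miRNAs to 52.9 and 138 RPM. The part of these shifts in the family's values was not tested. The values of the members moved with the scaling. Without TMM factors the RPM ratios were 0.54 for mmu-miR-34b-5p, 0.37 for mmu-miR-34c-5p, 0.31 for mmu-miR-34a-5p, -0.55 for mmu-miR-449a-5p and -1.24 for mmu-miR-449c-5p on the log2 scale. On that scale the called member was mmu-miR-449c-5p, on the lower side. The steps in the low values put it at about 71 reads with shNC and about 17 with shPerk.

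Ratios between members of one library do not depend on the scaling, so they were used to compare mmu-miR-34a-5p with the rest of the family. The mmu-miR-34a-5p strand was 18.0% (17.4% to 18.7%) of the sum of itself and mmu-miR-34c-5p in shNC cells at day 0 and 4.91% (4.63% to 5.19%) in shPerk cells. At day 3 it was 9.84% (9.53% to 10.2%) and 5.05% (4.73% to 5.39%). The ratio of mmu-miR-34a-5p to mmu-miR-34c-5p was thus lower in shPerk cells by a log2 difference of -2.09 (-2.20 to -1.99) at day 0 and of -1.04 (-1.15 to -0.93) at day 3. Both libraries of shPerk cells gave about the same share, and their ratios differed by 0.04 on the log2 scale (-0.09 to 0.17). In shNC cells the ratio was lower at day 3 than at day 0 by -1.01 (-1.09 to -0.93).

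The same share was 11.6% with the vector and 8.47% with ATF4, a log2 difference of the ratio of -0.51. In P19 cells it was 3.18% with shNC and 3.05% with shPerk, a difference of -0.06. The lower ratio in PERK knockdown cells was thus seen at both days of C2C12 cells, and the P19 pair differed by little. The 2 lines could not be tested against each other.

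The mmu-miR-449a-5p strand was compared with mmu-miR-34c-5p in the same way. Its share of their sum was 0.434% (0.327% to 0.564%) in shNC and 1.01% (0.885% to 1.15%) in shPerk cells at day 0, and 0.479% and 0.350% at day 3. The log2 difference of the ratio between shPerk and shNC cells was 1.23 (0.80 to 1.65) at day 0 and -0.46 (-0.90 to -0.01) at day 3. In P19 cells the share was 1.57% with shNC and 0.831% with shPerk. The mmu-miR-449a-5p strand therefore did not keep a fixed ratio to the chromosome 9 cluster, although it shares the 5p seed.

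The hairpins of the chromosome 9 cluster kept closer ratios. The mmu-miR-34b-5p strand was between 9.25% and 13.2% of the sum of itself and mmu-miR-34c-5p in the 8 libraries. Whether reads of one were counted for the other could not be checked. The 3p strand was between 2.72% and 4.26% of the miR-34c reads. In miR-34b the strands were more even, with the 3p strand at 52.7% (51.0% to 54.4%) in shNC and 57.1% (56.0% to 58.2%) in shPerk cells at day 0, and at 52.0% (50.7% to 53.2%) and 59.6% (58.1% to 61.1%) at day 3. It was 61.3% with the vector, 61.9% with ATF4, 48.2% in P19 shNC and 39.7% in P19 shPerk cells. The 3p share of miR-34b was higher in shPerk than in shNC cells at both days in C2C12 and lower in P19. The 5p and 3p strands of miR-34b carry different seeds, as the printed sequences show, so the 3p share sets how its reads divide between them.

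**Figure D3:**
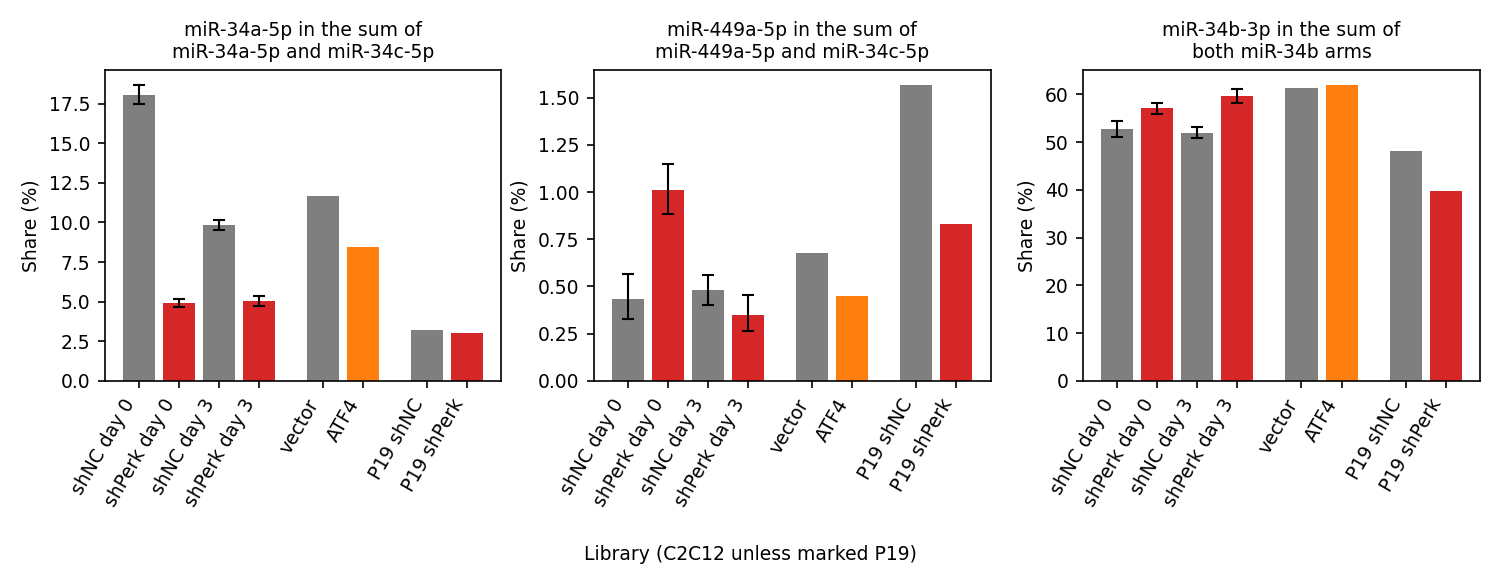
Share, in percent, of mmu-miR-34a-5p and of mmu-miR-449a-5p in their sums with mmu-miR-34c-5p, and of the 3p strand among miR-34b reads, 1 bar per library. Bars on the first 4 columns carry 95% counting intervals, grey marks controls, red shPerk and orange ATF4, and the share of mmu-miR-34a-5p is 18.0% in shNC against 4.91% in shPerk cells at day 0.

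Across the 8 libraries the levels of the chromosome 9 strands varied together. On log2(CPM or RPM + 1), Pearson's r was 0.93 between mmu-miR-34c-5p and mmu-miR-34c-3p and 0.92 between mmu-miR-34c-5p and mmu-miR-34b-5p. Between mmu-miR-34a-5p and mmu-miR-34c-5p it was 0.40, and -0.04 over the 6 C2C12 libraries alone. These are descriptions over few libraries, some of them from the same stable line. They set CPM beside RPM values that were scaled separately, and reads of one hairpin are not independent.

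Outside the family, the 5 miRNAs whose levels were most like mmu-miR-34a-5p, out of 416 listed in all libraries with at least 10 CPM or RPM in at least 1, were mmu-miR-188-5p (r = 0.98), mmu-miR-501-3p (0.96), mmu-miR-532-5p, mmu-miR-362-5p and mmu-miR-362-3p (all 0.95). Of these, mmu-miR-188-5p stood at 213 and 42.4 CPM at day 0 and at 192 and 35.3 CPM at day 3, in shNC and shPerk cells. It was at 92.9 RPM with the vector, 83.1 RPM with ATF4, 10.2 RPM in P19 shNC and 10.8 RPM in P19 shPerk cells. As with mmu-miR-34a-5p, both shPerk libraries of C2C12 were below both shNC libraries and the P19 libraries were lowest. This likeness follows from the choice of mmu-miR-188-5p on these same libraries. Unlike it, mmu-miR-34a-5p rose from 157 RPM with the vector to 186 RPM with ATF4. In shNC cells mmu-miR-34a-5p also rose, from 246 CPM at day 0 to 276 CPM at day 3. In RefSeq on GRCm38.p6 mmu-miR-188-5p lay at chrX:7248031-7248051 and mmu-miR-501-3p at chrX:7241270-7241291. From one hairpin came mmu-miR-362-5p at chrX:7242019-7242042 and mmu-miR-362-3p at chrX:7241984-7242005. All of these are near one another and away from Mir34a on chromosome 4, so they may not be separate matches. No position was matched for mmu-miR-532-5p. By rank correlation 3 of the 5 stayed among the closest 5.

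The miRNAs most like mmu-miR-34c-5p were less close. They were mmu-miR-224-5p (r = 0.74), mmu-miR-872-5p (0.70), mmu-miR-152-3p (0.68), mmu-miR-23b-3p (0.67) and mmu-miR-1a-3p (0.64). By rank correlation 1 of them stayed among the closest 5.

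Other miRNAs linked to p53 were set beside the family, as a list of 17 of which 14 passed the filter in the C2C12 comparisons and 16 in P19 cells. The list held miRNAs induced or processed with p53 and others that act on p53 mRNA, so it has no common direction. At day 0 of the knockdown, 1 of 14 was called higher and 0 lower, against 15.6% and 20.3% of all miRNAs tested. At day 3, 2 were called higher and 2 lower, against 21.9% and 23.0%, so neither count stood above the share over all miRNAs. The lower ones at day 3 were mmu-miR-15a-5p, which acts on BCL2, at -1.68 (-2.06 to -1.31) and mmu-miR-200c-3p at -1.36 (-2.95 to -0.06), the latter from 25 and 6 reads. The higher ones were mmu-miR-215-5p at 2.67 (1.96 to 3.47) and mmu-miR-30d-5p, which acts on p53 mRNA, at 1.26 (1.24 to 1.27). The mmu-miR-215-5p value at day 0 was 1.21 (0.50 to 1.95), with 28 and 46 reads. The list's median was -0.09 at day 0 and -0.11 at day 3, against -0.06 and 0.01 over all miRNAs tested. A part of p53 in the family's values was not tested.

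Day 3 against day 0 gave 1 called member of the list in shNC cells, mmu-miR-145a-5p at 1.11 (1.07 to 1.15), on the higher side, and 0 on the lower side, where 12.5% and 16.5% of all miRNAs tested were called. In shPerk cells it gave mmu-miR-143-3p at 1.35 (1.34 to 1.36) and mmu-miR-215-5p at 1.06 (0.52 to 1.61) on the higher side, and mmu-miR-16-1-3p at -1.15 (-1.31 to -0.996) and mmu-miR-200c-3p at -1.72 (-3.32 to -0.41) on the lower side, where 16.9% of all miRNAs tested were called on each side. With ATF4 none of the 14 was called, against 14.0% on the higher and 8.60% on the lower side.

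In P19 cells 6 of 16 were called higher and 1 lower, against 17.1% and 17.5% of all miRNAs tested. The higher ones included mmu-miR-192-5p, from 123 to 402 RPM at 2.29, and mmu-miR-194-5p, from 204 to 303 RPM at 1.16. They also included mmu-miR-143-3p, from 28.2 to 118 RPM at 2.66, and mmu-miR-200c-3p, from 31.6 to 48.5 RPM at 1.21. The mmu-miR-141-3p strand was listed at 0 in shNC and at 7.18 RPM in shPerk cells, and mmu-miR-215-5p at 0 and 1.57 RPM. Their log2 fold changes, 3.25 and 1.13, used 1 RPM in place of the 0. Whether the listed miRNAs vary independently of one another was not examined, so their count is only a description. The lower one was mmu-miR-125b-5p, which acts on p53 mRNA, from 608 to 190 RPM at -1.09. On the unscaled RPM ratio mmu-miR-194-5p was at 0.57, mmu-miR-200c-3p at 0.62 and mmu-miR-215-5p, with its 0 set to 1 RPM, at 0.65, all within the limit, while mmu-miR-107-3p, at -0.48 with TMM factors, was past it at -1.08.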

How the data were processed

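Total RNA was extracted with TRIzol, ligated to linkers at both ends, reverse-transcribed, amplified and size-selected on a gel, and reads were annotated with bowtie against the genome and known RNAs. The submitters' processing notes name mm10 and GRCm38. The version of bowtie, the miRNA release and how multiply matching reads were assigned are not given in the sources used here. Raw read counts per mature miRNA were deposited by the authors for the 4 C2C12 libraries with hairpins. For the ATF4 and P19 pairs the authors deposited RPM, with values under 1 RPM listed at 0. Of the 5 deposited tables, the columns of fold changes, p-values and q-values of the authors were not used, and 0 columns of per-sample values were left unmatched.

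The members and lists were chosen with earlier results of these data known. The members were taken by name, with the 5 miRNAs most like mmu-miR-34a-5p and mmu-miR-34c-5p and the listed p53-linked miRNAs beyond the limit. Fold changes used edgeR's TMM factors, a prior count of 0.125, a filter of 1 CPM or RPM in at least 1 library and a limit of 1 on the log2 scale. RPM entries at 0 were set to 1, and no counting interval was computed from RPM. Intervals are 95% Clopper-Pearson intervals on reads, and those of ratios between members and of differences between days are normal intervals on the log2 scale. Each condition had 1 library, so no test was made. Depth was 8800977 to 11993448 reads for counts. The code was tested on simulated data. Alternatives were total, upper-quartile and median-of-ratios scaling, other filters, a prior count of 2, another value for entries at 0 and the interval rule. The tools were edgeR 4.0.16 and, for size factors only, DESeq2 1.42.0 in R 4.3.3, with scipy 1.17.1, numpy 2.4.6, matplotlib 3.10.9 and pandas 2.3.3 in Python 3.11.15.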

Additional observations from a re-analysis of the deposited data

Results flagged for a closer look

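For all 7 members the sign of a log2 fold change differed between the days or between the hairpins, in single libraries, with counting intervals off 0 on both sides, and none of these differences was tested. How many of all miRNAs tested met the same rule was not counted, so these counts do not set the family apart. The knockdown value was above 0 at day 0 and below 0 at day 3 for mmu-miR-34b-5p (day 3 minus day 0, -1.68), mmu-miR-34c-5p (-1.56), mmu-miR-34c-3p (-1.49), mmu-miR-449a-5p (-3.24) and mmu-miR-449c-5p (-4.51).

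The change from day 0 to day 3 was above 0 in shNC cells and below 0 in shPerk cells for mmu-miR-34a-5p (shPerk minus shNC, -0.61), mmu-miR-34b-5p (-1.79), mmu-miR-34b-3p (-1.59), mmu-miR-34c-5p (-1.67) and mmu-miR-449a-5p (-3.35). The mmu-miR-449c-5p strand, at 0.24 in shNC and -4.37 in shPerk cells, is not counted here, since its interval in shNC cells included 0. Both sets of values come from the same 4 libraries, so they are not separate observations.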

How the results depend on the processing

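Of the 42 values of a member in a comparison, 36 kept their sign and 35 their side of the limit under every alternative of scaling, filter, prior count or entry at 0 that gave a value. The interval rule, which changes the call and not the value, is not among these alternatives. The 6 with another sign under some alternative were mmu-miR-34b-3p for the knockdown at day 3, mmu-miR-449c-5p for shNC and mmu-miR-34c-3p for shPerk day 3 against day 0 (total scaling), mmu-miR-34a-5p and mmu-miR-449a-5p for ATF4 (upper quartile), and mmu-miR-449a-5p for P19 (both).

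With total scaling the called members were 3 in place of 5 for shNC day 3 against day 0. They were 3 in place of 2 for the knockdown at day 3 and for shPerk day 3 against day 0. For P19 the same scaling gave 1 on the lower side in place of 1 on the higher side. Upper-quartile scaling gave 4 in place of 5 for shNC. With the whole interval beyond the limit the called members were 5 in place of 6 for the knockdown at day 0, without mmu-miR-449c-5p. With a filter of 10 CPM or RPM mmu-miR-449c-5p, at most 8.97 RPM in any library, was not tested. Without it the called members were 1 in place of 2 for the knockdown at day 3 and 5 in place of 6 at day 0. They were likewise 1 in place of 2 for shPerk day 3 against day 0. For shNC they were 3 in place of 5, since mmu-miR-34b-5p, at 0.996, and mmu-miR-34b-3p, at 0.95, fell within the limit. For P19 they were 2 in place of 1 with that filter and also 2 with the median of ratios. Over all miRNAs the calls were 258 for the knockdown at day 3, 216 at day 0, 172 for shNC and 194 for shPerk day 3 against day 0, and 137 for ATF4. Without a filter the first 4 were 627, 588, 556 and 511, with a filter of 10 CPM or RPM they were 163, 126, 90 and 104, and with the whole interval beyond the limit they were 162, 130, 80 and 86. For ATF4 they were 90 with the higher filter and 86 with a prior count of 2.

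The higher side's share of calls went, under total scaling, from 48.8% to 35.9% for the knockdown at day 3, from 43.0% to 26.7% for shNC and from 50% to 26.5% for shPerk day 3 against day 0, and from 49.4% to 15.2% for P19. For ATF4 it went from 62.0% to 30.5% with upper quartiles. Total scaling put the median of all miRNAs at -0.32 for the knockdown at day 3, -0.19 at day 0, -0.30 for shNC, -0.40 for shPerk and -0.63 for P19.

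No paired analysis was possible because each condition had 1 library, and for that reason no library was left out. Counting intervals do not hold the spread between cultures, and depth limits the miR-449 strands.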

Other observations

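Other strands of the same hairpins were near the limit of detection. The mmu-miR-34a-3p strand had 5 and 2 reads at day 0 and 8 and 1 reads at day 3, in shNC and shPerk cells, and 1.04 RPM with the vector and 1.15 RPM with ATF4. The mmu-miR-449a-3p strand had 1 and 8 reads at day 0 and 3 and 0 reads at day 3. The row mmu-miR-449b had 2 reads in shNC cells at day 3 and 0 in the other C2C12 hairpin libraries, and mmu-miR-449c-3p had 0 in all 4.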
